A study of Mus musculus with 6 samples.

Results

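Gm18860, Gm6685 and Gm16425 are intronless copies of the genes Cnot8, Cyb5d1 and Larp1. These 6 genes, 3 pairs of a copy and its parent, were taken by symbol from the 55450 gene rows of the count table, and all 6 were among the 13470 genes with enough counts to be tested. The copies had been picked because their counts were higher in CD103KO than in WT libraries, and the parents because their transcripts match the copies in sequence. The difference between the groups therefore chose the members, and it is given for them as a description with no test. Bulk RNA-seq had been made from sorted lymph node CD8 T cells of the naive state, in 3 CD103KO and 3 WT libraries. CD103KO cells came from mice lacking Itgae, which encodes the integrin chain CD103, and WT cells from C57BL/6 mice. Cells of both groups had been sorted as negative for the surface proteins Ly6C and CXCR3. The labels give neither the Itgae allele, nor the strain background of the CD103KO mice, nor whether each library is from an animal of its own. The p-values therefore cover the spread between these libraries alone, which may be technical in part.

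A processed copy arises when a spliced messenger RNA is reverse transcribed and inserted elsewhere in the genome. It lacks the introns of its parent, and usually its promoter too, and most such copies decay into pseudogenes that no longer encode a working protein. Because copy and parent remain alike, a short read from one may align to both, and RSEM, the program that made the counts, divides such reads by estimated probability. Among the parents, Cnot8 encodes a catalytic subunit of the CCR4-NOT complex, which shortens the poly(A) tails of messenger RNAs. Larp1 encodes a La-related RNA-binding protein that controls translation of messenger RNAs with a terminal oligopyrimidine start, downstream of the kinase mTOR. Cyb5d1 encodes a protein with a cytochrome b5 heme-binding domain.

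Coordinates are those of GENCODE M21 on GRCm38. Gm18860 (ENSMUSG00000110569.1) lies on chromosome 8 from 71704205 to 71704968 on the minus strand, and Gm16425 (ENSMUSG00000083218.2) on chromosome 8 from 19535454 to 19538583 on the plus strand. Both are annotated as processed pseudogenes by GENCODE. Gm6685 (ENSMUSG00000032889.6) lies on chromosome 11 from 28339104 to 28339867 on the minus strand. GENCODE annotates Gm6685 as protein-coding, whereas RefSeq lists it as a pseudogene, so the annotations differ on whether this copy is a pseudogene. None of the copies overlaps another annotated gene. All parents lie on chromosome 11, the chromosome of Itgae. Cnot8 (ENSMUSG00000020515.13, 58104153 to 58118594, plus strand) and Larp1 (ENSMUSG00000037331.15, 58009064 to 58062034, plus strand) are neighbours 42.1 kb apart, 15.0 Mb from Itgae. Cyb5d1 (ENSMUSG00000044795.12, 69391925 to 69395631, minus strand) lies 3.69 Mb from Itgae, while its copy Gm6685 is 44.8 Mb away. Cyb5d1 overlaps Naa38 on the opposite strand, and reads of the pair could be mixed if strand was not used in counting, which is not stated. Naa38 was at 21.7 ± 1.29 CPM in CD103KO and 21.8 ± 1.06 CPM in WT (SD, n = 3 each).

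The gap-free stretches of 150 bases where each copy differs most from the coding part of its parent are shown. Differences of this kind can assign a read to one or the other. The stretches come from GENCODE M21 transcripts, read 5′ to 3′ in the sense of the transcript, with bases that differ between copy and parent in capitals. The sequence of these genes in the CD103KO mice was not examined, so it may differ from the reference shown. For Gm18860 and Cnot8 the stretch covers coding bases 244 to 393 of Cnot8, counted from 1 at the first base of its start codon, and holds 7 differences.
Gm18860: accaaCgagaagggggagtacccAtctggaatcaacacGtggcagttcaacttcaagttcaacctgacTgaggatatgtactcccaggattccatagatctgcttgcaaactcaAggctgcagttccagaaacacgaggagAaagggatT
Cnot8: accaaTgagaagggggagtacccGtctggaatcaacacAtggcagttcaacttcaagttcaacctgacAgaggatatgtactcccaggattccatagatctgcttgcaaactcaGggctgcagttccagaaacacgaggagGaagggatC
For Gm6685 and Cyb5d1 it covers coding bases 154 to 303 of Cyb5d1, with 3 differences that all fall near its end.
Gm6685: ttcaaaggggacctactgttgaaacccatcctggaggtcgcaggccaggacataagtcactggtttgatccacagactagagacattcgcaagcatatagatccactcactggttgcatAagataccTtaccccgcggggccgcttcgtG
Cyb5d1: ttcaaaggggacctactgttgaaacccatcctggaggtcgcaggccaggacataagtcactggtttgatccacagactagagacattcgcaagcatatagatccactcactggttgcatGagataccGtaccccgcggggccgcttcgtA
For Gm16425 and Larp1 it covers coding bases 2627 to 2776 of Larp1, with 13 differences.
Gm16425: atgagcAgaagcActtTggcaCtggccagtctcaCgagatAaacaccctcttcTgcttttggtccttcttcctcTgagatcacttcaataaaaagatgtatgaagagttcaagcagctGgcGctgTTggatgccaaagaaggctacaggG
Larp1: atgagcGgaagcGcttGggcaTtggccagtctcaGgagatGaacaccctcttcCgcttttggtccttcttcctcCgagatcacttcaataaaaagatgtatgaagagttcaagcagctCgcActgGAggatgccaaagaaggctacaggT

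Over its full match Gm18860 was 97.8% identical to Cnot8, with 16 substitutions and 1 gap in 760 bases. It held 86.8% of the Cnot8 coding sequence and ran across 5 of the 6 exon junctions of that transcript without an intron. Of the 16 substitutions, 11 fell on the third position of a codon, and 11 altered codons kept the amino acid while 5 did not. Read in the frame of Cnot8 from the start of the match, however, Gm18860 met a stop at codon 166 where Cnot8 reads on for 253. Gm6685 was the closest copy, 99.3% identical to Cyb5d1 over 751 bases, with 5 substitutions and 0 gaps across the whole coding sequence and all 3 exon junctions. Written as the base in Cyb5d1, the coding position and the base in Gm6685, these were T92C, G273A, G281T, A303G and G562T. They kept the amino acid in 1 codon and altered it in 4, and Gm6685 kept the reading frame open to a stop at codon 229, directly after the 228 codons that Cyb5d1 encodes. Gm16425 was the most diverged, 93.1% identical to Larp1 over 3062 bases with 145 substitutions and 25 gaps, across 18 exon junctions. Read in the frame of Larp1 from the start of the match, it met a stop at codon 90 where Larp1 reads on for 1015. No other annotated transcript matched any of the parents at 90% identity over 300 bases or more, nor at 80% over 200 bases, so each parent had 1 copy in the annotation.

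**Figure D1:**
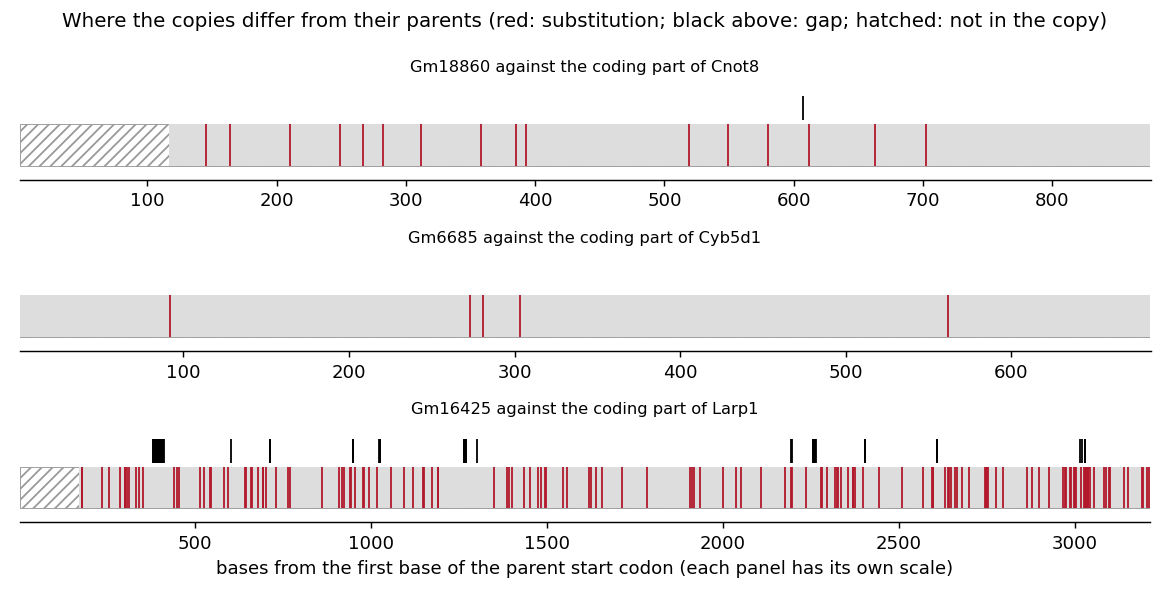
Position of each substitution (red) and each base within a gap (black, above the bar) along the coding sequence of the parent, in bases from its start codon. Grey marks the part of the coding sequence that the copy holds and hatching the part it lacks. Gm6685 has 5 substitutions and 0 gaps, Gm18860 has 16 substitutions and 1 gap, and Gm16425 has 145 substitutions and 25 gaps with 66 bases in all.

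How far reads can be told apart depends in part on these differences, counted here in reference transcripts. Only unbroken identity was counted, so a read that aligns to both with a mismatch is not covered. Of all windows of 100 bases in Gm6685, 50.4% occurred unbroken in a Cyb5d1 transcript, against 15.2% of those in Gm18860 for Cnot8 and 0.726% of those in Gm16425 for Larp1. With windows of 50 bases the shares were 74.8%, 28.3% and 9.02%, and with 150 bases 22.8%, 4.07% and 0%. The read length is not given in the sources used here, so the share that applies to these libraries is not known. Of the deposited expected counts, 16 of the 18 values of the copies, and 16 of the 18 values of the parents, were not whole numbers, against 19.3% of all values of tested genes and 0 of the 6 values of Itgae. Copy and parent nevertheless added up to a whole number in all 18 cases (tolerance 0.011). In Gm18860 and Cnot8, for example, CD103KO replicate 1 had 304.11 and 5819.89 expected counts, which sum to 6124. The 6 sums were whole in 202 of 832 pairs of a tested pseudogene and its closest protein-coding gene (24.3%), counting pseudogenes with a value that was not whole. In 2 of the 18 cases both values were already whole (Gm6685 and Cyb5d1 in WT replicate 3, Gm16425 and Larp1 in WT replicate 1), and in the other 16 the fractions of copy and parent completed each other.

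Values that follow are in CPM, the standard scaling of counts to library size, here with TMM factors, from libraries of 68292475 to 76044311 expected counts in CD103KO and 74438908 to 94347034 in WT. In these, 1 count equals 0.0132 to 0.0147 CPM in CD103KO and 0.0104 to 0.0134 CPM in WT. Itgae, the targeted gene, was at 67.9, 67.9 and 61.1 CPM in CD103KO replicates 1, 2 and 3 and at 491, 495 and 460 CPM in WT replicates 1, 2 and 3. WT replicates 1 and 2 stand apart from the other 4 libraries. Xist, from the inactive X chromosome, was at 66.9 and 79.7 CPM in them and at no more than 2 counts elsewhere, and Ddx3y, a gene of the Y chromosome, had 0 counts in them and 47.8 to 56.2 CPM elsewhere. The WT libraries therefore did not all come from animals of the same sex. All CD103KO libraries had the male pattern, so sex was not balanced between the groups. Fits with a term for Xist reads are given below. All 11 markers of naive CD8 T cells were present, with a summed level of 10435 to 10787 CPM in CD103KO and 10608 to 10772 CPM in WT. Markers of B cells (5 of 5 higher in CD103KO, 3 of them called) summed to 5.69 to 9.30 CPM in CD103KO and 1.63 to 2.11 CPM in WT. Markers of erythrocytes and platelets (4 of 4 tested higher in CD103KO, 0 called) summed to 57.0 to 92.0 CPM in CD103KO and 32.6 to 49.2 CPM in WT, with Pf4 at 0 counts in all 6 libraries. Sums of the CD4 T cell, NK cell, myeloid and stroma markers overlapped between the groups, with 0 called. The stroma sum was mostly Pecam1 (mean 146 CPM in CD103KO and 143 CPM in WT). The NK cell sum was mostly Eomes (mean 37.3 CPM in CD103KO and 35.5 CPM in WT). The overlap of those sums therefore says little about the other markers in them. The part of cells other than CD8 T cells in the differences of the copies was not tested. In bulk RNA, fewer cells that carry a transcript and less of it per cell cannot be told apart.

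Gm18860 was at 4.14, 4.34 and 4.19 CPM in CD103KO replicates 1, 2 and 3, and at 0.0401, 0.0522 and 0.113 CPM in WT replicates 1, 2 and 3. The CD103KO libraries lay close together and far above every WT library. The groups had 917 counts in CD103KO and 17 in WT, which after scaling is a 62.1-fold ratio (exact 95% counting interval 38.6 to 107). The fitted log2 fold change was 5.92 (SE 0.26). Its parent Cnot8 was at 79.3, 80.7 and 85.6 CPM in CD103KO and at 70.6, 68.2 and 73.4 CPM in WT, with a log2 fold change of 0.21 (SE 0.05). Here too the groups did not overlap, and the parent was higher in CD103KO along with its copy. Cnot8 differed by 11.1 CPM between the group means, and Gm18860 by 4.16 CPM.

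Gm6685 was at 1.46, 1.31 and 1.19 CPM in CD103KO and at 0.0267, 0.0522 and 0 CPM in WT. It was therefore near the level of single counts in WT, with 7 counts in that group and none in WT replicate 3, against 286 in CD103KO. The scaled ratio was 47.1 (exact 95% counting interval 22.5 to 118), and the fitted log2 fold change 5.49 (SE 0.50). With so few WT counts a single library moves this value, which was 6.49 without WT replicate 2 and 4.96 without WT replicate 3. Cyb5d1 was at 9.95, 9.75 and 9.81 CPM in CD103KO and at 10.4, 9.27 and 9.70 CPM in WT. The groups overlapped, with all CD103KO values inside the range of WT, and the log2 fold change was 0.01 (SE 0.07). Its sign changed between fits, which ranged from -0.03 to 0.05.

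Gm16425, the copy with the fewest counts in CD103KO, was at 0.286, 0.294 and 0.304 CPM in CD103KO and at 0.0134, 0.0313 and 0.0503 CPM in WT. The groups did not overlap, but the values rest on 64 counts in CD103KO and 8 in WT, with a scaled ratio of 9.22 (exact 95% counting interval 4.41 to 22.3). The fitted log2 fold change was 3.14 (SE 0.46). Larp1 was at 193, 201 and 199 CPM in CD103KO and at 190.4, 198 and 188 CPM in WT. These overlapped, with a log2 fold change of 0.04 (SE 0.04).

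**Figure D2:**
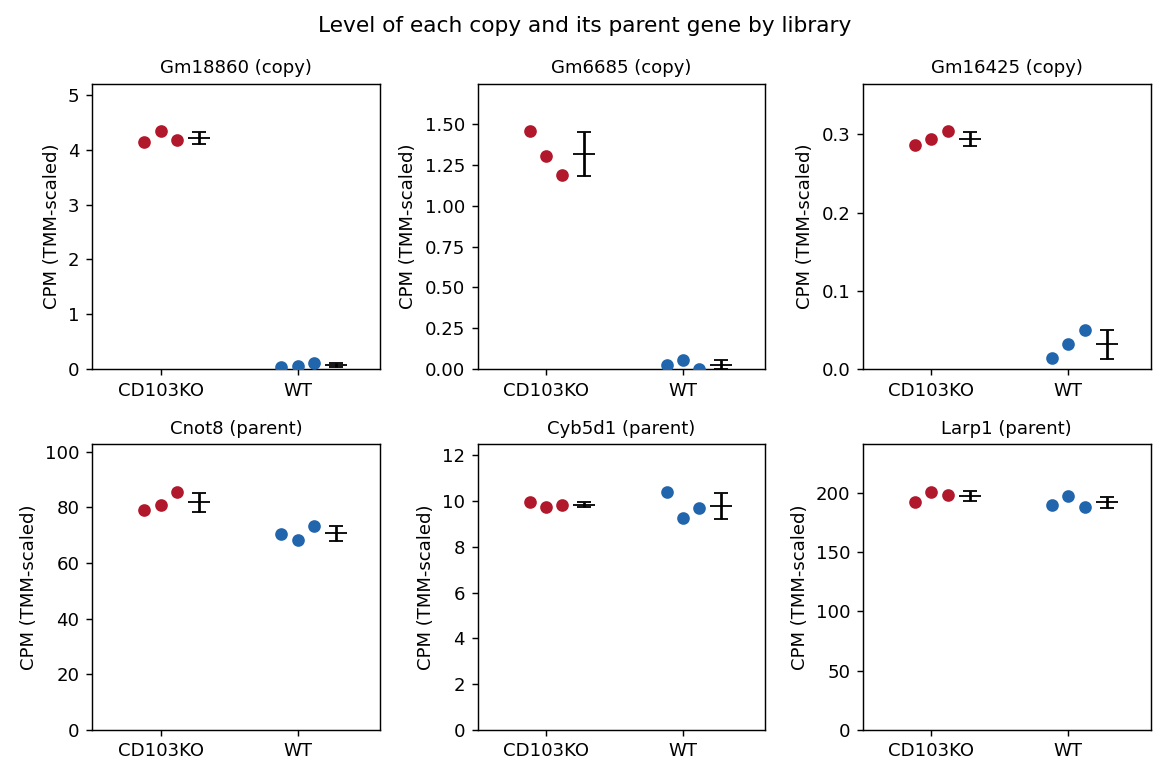
Level of each copy (top) and its parent (bottom) in CPM, with 1 point per library for CD103KO (red) and WT (blue) and the mean ± SD of 3 libraries beside them. Every axis starts at 0 and has its own scale. The copies lie near 0 in WT and at 4.14 to 4.34 CPM (Gm18860), 1.19 to 1.46 CPM (Gm6685) and 0.286 to 0.304 CPM (Gm16425) in CD103KO, while Cyb5d1 and Larp1 overlap between the groups.

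The 3 copies were among the 30 genes called in CD103KO against WT (edgeR quasi-likelihood test, adjusted p under 0.05), which their choice fixed, and none of the parents was, where 0.223% of the 13470 tested genes were called and 0.141% were called as higher. Gm18860 and Gm6685 passed in all 14 fits tried, and Gm16425 in 5 of them. These fits reuse the libraries from which the copies were chosen, so passing again is no support for the copies. Of the 6 genes, 4 had groups that did not overlap and were higher in CD103KO (the copies and Cnot8), a property of 6.82% of tested genes. For the 3 copies their choice largely fixed this, and only Cnot8 was not picked for it. DESeq2 gave Cnot8 an adjusted p below the threshold, which edgeR did not in any of the other 13 fits.

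Per kilobase of the longest transcript, which allows levels of different genes to be compared, the copies stood in the order Gm18860, Gm6685, Gm16425 in CD103KO, at 5.53, 1.72 and 0.0941 CPM per kb, with no overlap between neighbours. In WT their means kept that order, at 0.0896, 0.0344 and 0.0101 CPM per kb, but Gm6685 overlapped with both of the others. The parents stood in another order, Cnot8, Larp1 and Cyb5d1 at 39.0, 29.9 and 9.51 CPM per kb in CD103KO and 33.7, 29.1 and 9.47 CPM per kb in WT. On that scale Gm18860 reached 0.142 times the level of Cnot8 in CD103KO and 0.00266 times in WT. Gm6685 reached 0.181 times the level of Cyb5d1 in CD103KO and 0.00364 times in WT, and Gm16425 reached 0.00315 times that of Larp1 in CD103KO and 0.000348 times in WT.

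The share of the copy in the counts of its pair does not depend on the scaling of the library. It separates the libraries in the same way, which the choice of the copies largely fixed. Gm18860 took 4.97%, 5.11% and 4.67% of the counts of Gm18860 and Cnot8 in CD103KO, against 0.0598%, 0.0797% and 0.146% in WT. The mean shares were 4.92 ± 0.221% in CD103KO and 0.0953 ± 0.0454% in WT (SD, n = 3 each). Gm6685 took the largest share, 12.8%, 11.8% and 10.8% of the counts of its pair in CD103KO, against 0.312%, 0.599% and 0% in WT. The 0% of WT replicate 3, from 0 of 771 counts, allows a share of up to 0.389% by the limit of 3 counts, and the exact 95% interval in the plot of shares reaches 0.477%. Gm16425 took 0.150%, 0.149% and 0.155% in CD103KO and 0.00701%, 0.0164% and 0.0278% in WT. For this last pair the exact 95% intervals of single libraries went down to 0.0891% in CD103KO and up to 0.0683% in WT. These intervals and limits cover counting error only and take divided reads as whole counts.

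**Figure D3:**
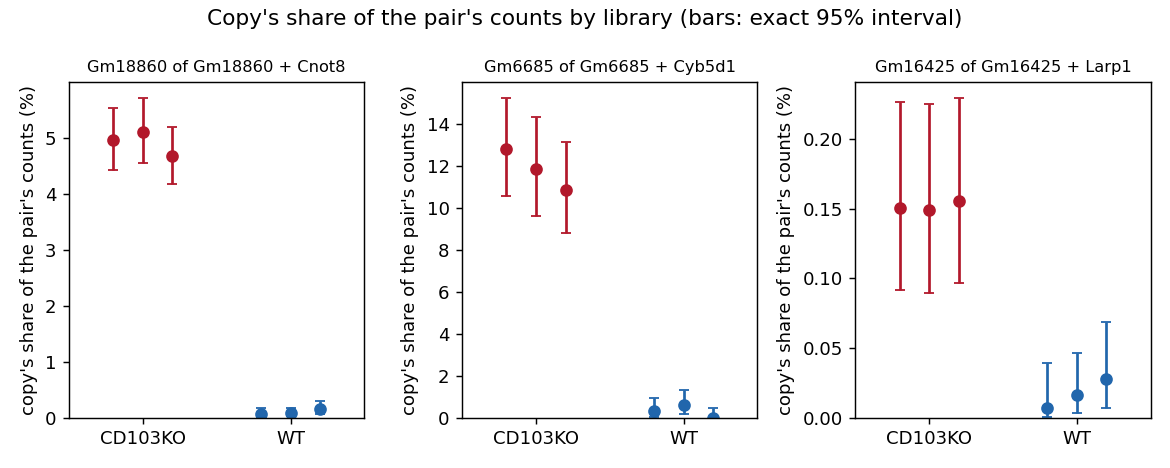
Share of the copy in the counts of copy and parent together, in percent, with 1 point per library and its exact 95% binomial interval, for CD103KO (red) and WT (blue). The CD103KO libraries lie at 4.67% to 5.11% for Gm18860, 10.8% to 12.8% for Gm6685 and 0.149% to 0.155% for Gm16425, all above the WT libraries.

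The sums of copy and parent are given as a description. They cannot tell reads moved between parent and copy from a change in the parent itself, and such a move was not tested. Gm18860 and Cnot8 together averaged 86.1 ± 3.31 CPM in CD103KO and 70.8 ± 2.64 CPM in WT (SD, n = 3 each). The sums were 83.4, 85.04 and 89.8 CPM in CD103KO and 70.6, 68.2 and 73.5 CPM in WT, without overlap, and the log2 fold change of the sum was 0.28 (SE 0.05), against 0.21 for Cnot8 alone. Gm6685 and Cyb5d1 together were at 11.4, 11.1 and 11.003 CPM in CD103KO and at 10.4, 9.32 and 9.70 CPM in WT. These did not overlap either, with a log2 fold change of 0.19 (SE 0.07) against 0.01 for Cyb5d1 alone. Here the sum was higher by 1.34 CPM, of which Gm6685 made up 1.29 CPM. Cyb5d1 itself averaged 9.84 CPM in CD103KO and 9.79 CPM in WT. Gm16425 and Larp1 together were at 193 to 201 CPM in CD103KO and 188 to 198 CPM in WT, which overlapped. The difference of their sum, 5.62 CPM, was below the SDs of both groups added (9.30 CPM), and the copy's own 0.263 CPM was far below either.

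The surroundings of a copy give a measure that its choice did not use. Within 1 Mb of the 3 copies, 72 other genes were tested and 0 were called (edgeR quasi-likelihood test), with 6 at an unadjusted p under 0.05 and 0 called by DESeq2. Against the 0.223% called among all tested genes, 0 of 72 is near the background. For Gm18860 these were 56 genes with log2 fold changes of -0.66 to 0.26. For Gm6685 they were 5 genes, the nearest with its midpoint 618 kb away, at -0.21 to 0.10, and for Gm16425 11 genes at -0.58 to 0.29. Over all tested genes, 1176 of 13470 had an unadjusted p under 0.05. Around the parents, 24 of 79 genes had one and 4 were called (5.06%), all of them lower in CD103KO and all near Cnot8 and Larp1, which share the same 23 neighbours. Galnt10, which encodes a glycosyltransferase of O-glycan synthesis, averaged 143 CPM in CD103KO and 211 CPM in WT (log2 fold change -0.56, SE 0.06, adjusted p = 0.00592, edgeR). The zinc finger gene Zfp39 averaged 6.26 CPM in CD103KO and 10.9 CPM in WT (-0.80, SE 0.10, adjusted p = 0.0189, edgeR), and the histone gene Hist3h2ba 0.751 CPM in CD103KO and 2.62 CPM in WT (-1.80, SE 0.23, adjusted p = 0.0164, edgeR). The transcript 2310058D17Rik averaged 0.457 CPM in CD103KO and 2.503 CPM in WT (-2.46, SE 0.27, adjusted p = 0.00592, edgeR). The count was 2 with the replicate block, without CD103KO replicate 3 or without WT replicate 1. It was 1 (Galnt10) with a term for Xist reads, and 0 without WT replicates 1 and 2, which leaves WT with 1 library. Around Cyb5d1, 0 of 56 genes were called with edgeR at 1 Mb, 12 had an unadjusted p under 0.05, and DESeq2, which called 128 of 15433 genes in all, called 4 (Alox8, Aurkb, Kdm6b and Plscr3).

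**Figure D4:**
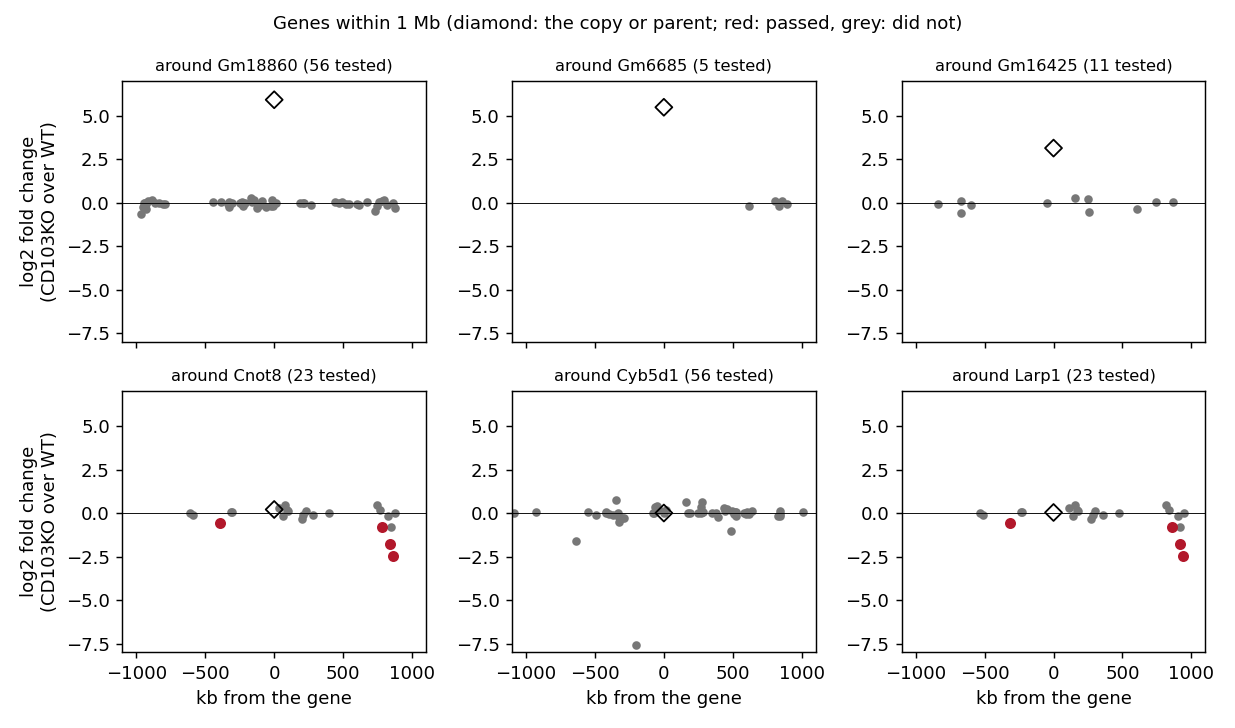
Log2 fold change (CD103KO over WT) of every tested gene within 1 Mb of each copy (top) and parent (bottom), against the distance between gene midpoints in kb. Diamonds mark the copy or parent itself, red points neighbours that passed (edgeR adjusted p under 0.05) and grey points those that did not. Neighbours of the copies lie between -0.66 and 0.29, and the red points are the 4 genes near Cnot8 and Larp1. The lowest grey point is Alox8, near Cyb5d1, which edgeR did not call.

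To set the copies beside others of their kind, every tested pseudogene was matched to its closest protein-coding gene at 90% identity over 300 bases or more. Of 953 tested genes annotated as pseudogenes by GENCODE or RefSeq, 856 had such a match. For 23 of these the parent lay within 20 Mb of Itgae, and 5 of the 23 were called, all higher in CD103KO (21.7%). Among the other 833, whose 462 parents lay elsewhere, edgeR called 0, against 0.223% of all genes. DESeq2, with 128 of 15433 genes called in all, called 6 and 2 in these groups, the 2 being Gm28438 and Gm4294. Since the members were chosen from these calls, the counts describe the class and are no test of it. Beside Gm18860, Gm6685 and Gm16425, the called copies were Gm1821 and Gm8797, both copies of the ubiquitin gene Ubb. Gm1821 was at 31.9 ± 3.92 CPM in CD103KO and 9.74 ± 1.42 CPM in WT, and Gm8797 at 4.79 ± 0.703 CPM in CD103KO and 1.44 ± 0.0643 CPM in WT (SD, n = 3 each). AC127331.2, a copy of the small GTPase gene Arf1, was not called by edgeR, at 0.231 ± 0.0837 CPM in CD103KO and 0.0215 ± 0.0194 CPM in WT (log2 fold change 3.41, adjusted p = 0.170, edgeR). Its groups did not overlap, and it passed with DESeq2.

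Groups that did not overlap and were higher in CD103KO were found for 6 of the 23 copies (26.1%) and 26 of the 833 others (3.12%), where 6.82% of all tested genes had them. The median log2 fold change was 0.10 for the 23 copies and -0.03 for the others. The 6 include Gm18860, Gm6685 and Gm16425, which were chosen for being higher in CD103KO. These copies and AC127331.2 also had enough counts to be tested only through CD103KO. These shares and medians therefore describe the class and are no test of it. Of the 23, 18 were not called. Copies of the ribosomal protein gene Rpl23a, such as Rpl23a-ps3 (6.50 ± 0.316 CPM in CD103KO and 7.09 ± 0.641 CPM in WT) and Gm10132 (11.4 ± 1.38 CPM in CD103KO and 10.7 ± 1.27 CPM in WT), and Eif4a-ps4, a copy of the translation factor gene Eif4a1 (9.53 ± 0.820 CPM in CD103KO and 8.78 ± 0.302 CPM in WT), were among these. Their parents lie 5.03 Mb (Rpl23a) and 3.42 Mb (Eif4a1) from Itgae. With the window at 10 Mb, 1 of 13 copies was called (Gm6685) and with 5 Mb 1 of 5, against 4 of 843 and 4 of 851 outside these windows, since Cnot8, Larp1 and Ubb lie farther out. Without WT replicates 1 and 2, and likewise with a term for Xist reads, 3 of the 23 were called, Gm18860, Gm6685 and Gm1821.

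**Figure D5:**
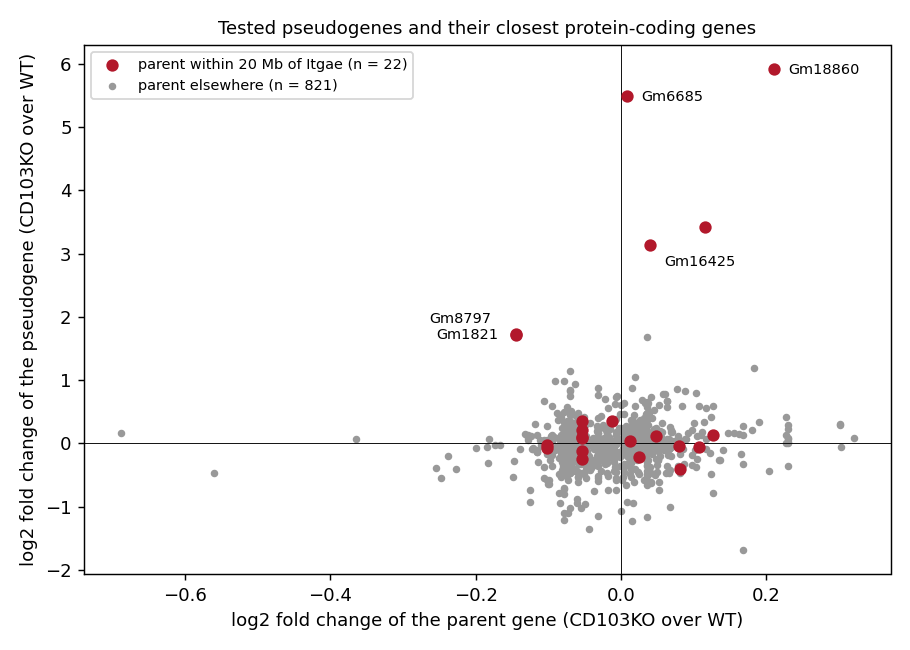
Log2 fold change (CD103KO over WT) of tested pseudogenes against that of their closest protein-coding gene, for 22 pairs with a parent within 20 Mb of Itgae (red) and 821 with a parent elsewhere (grey), leaving out 13 pairs whose parent was not tested. The named points are the 5 called copies, which lie at 1.71 to 5.92 while their parents lie between -0.14 and 0.21, and the unnamed red point at 3.41 is AC127331.2.

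Across the 6 libraries and 10766 genes of at least 1 CPM, the patterns most like those of the copies were found by Pearson correlation of log2(CPM + 0.1). They are given as a description, since the libraries fall into 2 groups. For Gm18860 they were Zfp286 on chromosome 11 (r = 0.997) and Mapk3, which encodes the kinase ERK1, on chromosome 7 (r = 0.996). For Gm6685 they were the nucleoporin gene Nup98 on chromosome 7 (r = 0.996) and Slc43a2, an amino acid transporter on chromosome 11 (r = 0.995), and for Gm16425 they were Gm18860 (r = 0.997) and Mapk3 (r = 0.996). Zfp286 and Slc43a2 were themselves called (edgeR). Zfp286 averaged 6.25 CPM in CD103KO and 2.87 CPM in WT, and Slc43a2 157.5 CPM in CD103KO and 101.5 CPM in WT. A like pattern did not mean a like size of difference, since Nup98 averaged 110.1 CPM in CD103KO and 107 CPM in WT, and Mapk3 42.2 CPM in CD103KO and 38.6 CPM in WT.

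The genes that work with the parents were measured as 4 lists. Of 59 listed genes, 54 were tested and edgeR called 0 over all genes, and so did DESeq2. The 0 calls are near the background of 0.223%, and 6 of the 54 had an unadjusted p under 0.05, where 1176 of 13470 did over all genes. The median log2 fold change was -0.001, close to that of all tested genes (-0.003). For each list the pair of genes with the smallest p is given, as mean ± SD of 3 libraries with the edgeR adjusted p. Among the 16 CCR4-NOT subunits and partners (median 0.02), Cnot1, the scaffold of the complex, was at 421 ± 15.9 CPM in CD103KO and 376 ± 10.2 CPM in WT (adjusted p = 0.310). The antiproliferative cofactor gene Btg1 was at 874 ± 33.2 CPM in CD103KO and 951 ± 9.91 CPM in WT (adjusted p = 0.434). Among 11 other deadenylases and poly(A) proteins (median -0.02), the deadenylase gene Toe1 was at 26.6 ± 0.714 CPM in CD103KO and 28.4 ± 0.946 CPM in WT (adjusted p = 0.685). Pabpc1, the cytoplasmic poly(A)-binding protein, was at 2157 ± 21.5 CPM in CD103KO and 2222 ± 5.37 CPM in WT (adjusted p = 0.735).

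Among 15 tested La-related proteins and mTORC1 translation genes (median 0.05), Eif4g1, the scaffold of the cap-binding complex, was at 445 ± 6.55 CPM in CD103KO and 406 ± 3.01 CPM in WT (adjusted p = 0.310, edgeR). Rptor, which encodes the mTORC1 subunit raptor, was at 64.7 ± 2.32 CPM in CD103KO and 59.4 ± 3.26 CPM in WT (adjusted p = 0.551, edgeR). Among 12 tested cytochrome b5 domain proteins and reductases (median -0.04), Cyb5d2 was at 4.69 ± 0.713 CPM in CD103KO and 6.19 ± 1.26 CPM in WT (adjusted p = 0.537, edgeR). The reductase gene Cyb5r4 averaged 75.2 CPM in CD103KO and 77.9 CPM in WT (log2 fold change -0.05, adjusted p = 0.737, edgeR).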

How the data were processed

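Polyadenylated RNA of 3 CD103KO and 3 WT samples was sequenced. The labels' protocols give a column kit for the RNA and a stranded ligation kit for the libraries. The tools named per the submitters' processing notes are bcl2fastq 2.20, cutadapt 1.18, STAR 2.7.0f and RSEM, with the builds GRCm38 and mm10. Not given in the sources used here are the RSEM version, its annotation, the strand setting and the read length. What the authors deposited is a single table of unnormalized expected counts, RSEM's estimates, which need not be whole. Of all values 6.48% were not whole, and counts were rounded before testing. All 55450 gene identifiers matched GENCODE M21.

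CD103KO was compared with WT in edgeR 4.0.16 (R 4.3.3) with filterByExpr (minimum count 10), TMM factors and the quasi-likelihood F test with group as the only term, adjusting p-values over 13470 genes by Benjamini-Hochberg (threshold 0.05). The standard error is the log2 fold change divided by the square root of F. As a check of the code, the fit was run on counts simulated from the means and dispersions of these data. That check is no support for any result on the members. Libraries of a group were not duplicates, with a chi-square per degree of freedom of 12.6 to 26.3 between them. Sequences were matched with megablast (BLAST+ 2.17.0), on transcripts of GENCODE M21. Alternatives were RLE factors, no filter, DESeq2 1.42.0, unrounded counts, the replicate number as a block, a term for Xist reads (above 1 CPM), only the libraries without them, and each library left out. SciPy 1.17.1 gave exact binomial intervals, and matplotlib 3.10.9 the plots.

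The members, lists and tests were chosen with earlier results of these data known. Genes named were the members, Itgae, matches of the parents, up to 3 called members of a list or else the 2 of smallest p, the 2 genes most like each copy and called copies with a parent within 20 Mb of Itgae. Naa38, AC127331.2, Gm28438, Gm4294, Rpl23a-ps3, Gm10132, Eif4a-ps4 and the neighbours called were named after their values were seen, and the neighbour windows were chosen after seeing the data.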

Additional observations from a re-analysis of the deposited data

How the results depend on the processing

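All 30 calls, and likewise the 0 calls among listed genes, were the same with RLE factors or unrounded counts. The count of called genes was 112 with no filter on low counts, 128 with DESeq2, 15 with a term for Xist reads and 13 with only the libraries without them, and ranged from 19 (without CD103KO replicate 2) to 59 (without CD103KO replicate 1) with single libraries left out. It was 52 without WT replicate 3. With the replicate number as a block the count was 24, with 21 of the 30 among them but not Gm16425. Same-numbered libraries gave no sign of pairing, with deviations that correlated at -0.199, -0.00535 and -0.0299 over 13470 genes. Those of unlike number correlated at -0.151 to 0.176. These values cannot tell whether samples of like number shared a batch. The 0 calls among listed genes held in all 13 alternatives.

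The log2 fold change of Gm18860 was 5.20 with the Xist term and 5.20 with only the libraries without Xist reads, that of Gm6685 9.68 and 9.61, and that of Gm16425 2.51 and 2.51. In these fits WT is WT replicate 3 alone, which had 0 counts of Gm6685, so its values depend on the prior count and are no bound. Taking 3 counts in that library as the floor, Gm6685 was at least 34.9-fold higher in CD103KO than in WT replicate 3, which is no bound against the other WT libraries. With single libraries left out, Gm18860 ranged from 5.69 to 6.45, the highest without WT replicate 3, and Gm6685 from 4.96 without WT replicate 3 to 6.49 without WT replicate 2. The difference in share of Gm16425 was 0.124 percentage points with only the libraries without Xist reads, against 0.134 with all. The sums of the pairs and the shares of Gm18860 and Gm6685 moved by less than the spread between replicates in each alternative that gives them, as did the fold changes of Cnot8, Cyb5d1 and Larp1.

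Of the copies with a parent within 20 Mb of Itgae, 3 to 6 were called across all fits, and of those with a parent elsewhere 0 to 2, with more than 0 with no filter, with DESeq2 and without CD103KO replicate 3. Around the copies Bst2 was called without WT replicate 3, and around the parents 0 to 11 genes were called. At 0.5 Mb and 2 Mb the counts near Cnot8 were 1 and 5, and near Cyb5d1 0 and 4. At 95% identity Gm16425 no longer matched Larp1. Counts of at most 9 per WT library limit every ratio of the copies.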
